A study of Mus musculus with 2 samples.

Results

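p53, encoded by Trp53, and 31 genes listed as its targets or regulators were read out in control and in senescent AML12 cells. These are 32 genes of the 35275 in the count table. Whether p53 regulates each listed target in mouse cells was not tested. The genes were chosen by name, with earlier results of these data known. They were matched through their Ensembl identifiers, and all 32 were found in the table. AML12 is a non-transformed mouse hepatocyte line, of male CD-1 liver by its labels, and is generally known to have been derived from mice that carry a human TGF-alpha transgene, which both groups share. Control cells were untreated. Senescence had been induced with hydrogen peroxide on 6 days, for 1 h each day, with 1 mM on day 1, 0.75 mM on the later days and 23 h without peroxide in between. Each condition has 1 library, made from the pooled RNA of 3 samples, so that differences could not be set against replicate spread and none was given a p-value. Each log2 ratio below compares these 2 libraries of 1 cell line.

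The p53 protein is a transcription factor held at a low level by the ubiquitin ligase MDM2 and its relative MDM4. Damage to DNA or oxidative stress releases p53 from these inhibitors, mainly through changes to the protein rather than to its mRNA, and p53 then binds pairs of 10-base elements near its target genes. Its targets include Mdm2 itself, which closes a feedback loop, and genes for cell cycle arrest, DNA repair and cell death. In the liver p53 is known as a brake on the growth of damaged hepatocytes.

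The control library held 28021941 counted reads and the senescent library 25738075. The 14383 genes with at least 10 reads over both are the compared genes below. Counts were scaled by the TMM method, and a ratio carries a 95% interval that covers counting error only. In the control 0.316% of all reads fell on the 32 genes, and 0.378% did in senescent cells. They had from 83 to 12010 reads in the control and from 27 to 18885 in the senescent library, and all 32 had at least 100 reads over both. Of the hepatocyte markers, 14 of 15 were found in the table. Krt8, a keratin of hepatocytes, had 119403 and 144783 reads, Krt18 had 40512 and 60941, and Apob, of the lipoprotein particle, had 22158 and 25094, whereas Alb, which encodes albumin, had 32076 control and 2917 senescent reads. The median log2 ratio of the 14 hepatocyte markers was -0.57. Of the 14, 8 had an interval below 0 and 5 above it, and 5 were lower and 0 higher past 1, against 9.98% and 5.09% of all compared genes. Alb, Apoa1, an apolipoprotein with a log2 ratio of -3.13, and Cebpa, a hepatocyte transcription factor with a ratio of -1.44, were singled out after their values were seen. Of 7 macrophage markers, 3 had at least 10 reads, Ptprc with 27 and 76, Cd68 with 34 and 40 and Csf1r with 15 and 40, and Ptprc and Csf1r were higher past 1. The summed level of the list was 2.72 counts per 1000000 scaled reads (CPM) in control and 6.41 in senescent cells, with Adgre1 and Clec4f at 0 reads in both. The summed level of 7 fibroblast markers was 0.928 and 0.363 CPM, with Col1a2 and Col3a1 at 0 reads in both. Of the 7, 1 had at least 10 reads, Col1a1, with 21 control reads and 1 senescent read, and it was lower past 1. The summed level of 6 endothelial markers was 0.206 and 0.564 CPM, and 0 of them had at least 10 reads. The part of these markers in the results below was not tested.

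The sequences before the start sites of 5 genes are shown. These are Trp53 and its inhibitors Mdm2 and Mdm4, which had the highest and the lowest ratio. Ccng1, which had the most reads, and Ckap2, a target gene of mitosis, are the others. The part of these sequences in the ratios was not tested. The sequences come from RefSeq on GRCm38.p6, read 5′ to 3′ on the strand of the gene, and stop before the first base that GENCODE M21 places in an exon. Capitals mark a 10-base stretch that matches the p53 consensus decamer at every position, or, in Ccng1 and Ckap2, a pair of adjoining decamers with at most 2 mismatches. The stretches are chr11:69580256-69580358 on the plus strand for Trp53, chr10:117710759-117711008 on the minus strand for Mdm2, chr1:133025417-133025666 on the minus strand for Mdm4, chr11:40755312-40755536 on the minus strand for Ccng1 and chr8:22185820-22186069 on the minus strand for Ckap2. That of Mdm4 lies within the annotated gene, before the RefSeq start, of 2, near which more GENCODE transcripts begin.
Trp53: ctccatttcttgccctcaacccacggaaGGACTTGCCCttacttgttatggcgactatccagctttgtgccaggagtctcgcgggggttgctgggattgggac
Mdm2: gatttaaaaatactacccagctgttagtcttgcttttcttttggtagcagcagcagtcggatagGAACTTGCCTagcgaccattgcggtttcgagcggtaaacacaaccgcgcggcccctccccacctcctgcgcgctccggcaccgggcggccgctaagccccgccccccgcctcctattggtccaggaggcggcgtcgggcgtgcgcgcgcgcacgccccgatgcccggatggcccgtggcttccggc
Mdm4: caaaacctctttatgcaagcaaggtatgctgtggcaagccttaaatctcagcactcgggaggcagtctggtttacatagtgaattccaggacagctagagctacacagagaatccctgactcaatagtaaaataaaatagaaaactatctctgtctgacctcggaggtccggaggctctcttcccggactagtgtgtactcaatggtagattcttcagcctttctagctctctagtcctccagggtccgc
Ccng1: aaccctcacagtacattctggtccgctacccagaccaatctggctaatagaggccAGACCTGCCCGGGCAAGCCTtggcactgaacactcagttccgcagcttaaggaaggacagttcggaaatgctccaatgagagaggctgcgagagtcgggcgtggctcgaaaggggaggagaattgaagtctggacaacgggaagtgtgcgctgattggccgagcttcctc
Ckap2: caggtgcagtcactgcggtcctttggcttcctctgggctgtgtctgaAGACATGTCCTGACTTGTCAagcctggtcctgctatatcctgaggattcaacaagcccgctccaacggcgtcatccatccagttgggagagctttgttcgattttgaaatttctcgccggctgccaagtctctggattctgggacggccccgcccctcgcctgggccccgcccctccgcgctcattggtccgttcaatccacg

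The consensus decamer, which equals its own reverse complement so that a search of either strand finds it, was looked for in windows from 250 bases before to 50 bases after each RefSeq start. Of the 32 genes, 25 had such a window, and Trp53inp1, Tnfrsf10b, Perp, Xpc, Ddb2, Rrm2b and Zmat3 had no entry. The decamer lay in at least 1 window of 10 of the 25 genes (40.0%), against 9.55% of the 27025 genes with a window. Counted by window, it lay in 33.3% of 33 windows of these genes and in 8.36% of all 32851 windows. The genes that held it were Trp53, Mdm2, Ccng1, Ppm1d, Rchy1, Aen, Abhd4, Ei24, Gtse1 and Ckap2. The windows of the 25 genes were richer in G and C, at 61.3% against 53.8% over all windows. A pair of adjoining decamers with at most 2 mismatches was found for Ccng1, Gtse1 and Ckap2, 12.0% of the 25 genes, against 0.392% of all genes with a window. In Ccng1 it began 195 bases before the start and had 1 mismatch, and in Ckap2 it began 203 bases before the start and had 2. Neither of the 2 windows of Mdm4 held the decamer. The 10 genes with the decamer had a median log2 ratio of 0.44 and the other 15 genes a median of 0.48. A match describes these letters alone, and sites outside the windows were not examined.

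Trp53 (ENSMUSG00000059552, chromosome 11 from 69580359 to 69591873 on GRCm38, the build of mm10) was counted at 5364 reads in control and 5494 in senescent cells. After scaling these were 184 and 221 CPM, with a log2 ratio of 0.26 and a 95% interval of 0.21 to 0.32. In bulk RNA a lower share of a cell type and less RNA per cell cannot be told apart, for Trp53 as for the other genes. The mRNA level differed by 1.2-fold between the libraries, and 69.8% of the compared genes had a lower ratio. A pseudogene, Trp53-ps, shares 20.2% of the longest Trp53 transcript at 95% identity or more and had 0 reads in both libraries.

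The inhibitors of p53 stood at opposite ends of the 32 genes. Mdm2 (ENSMUSG00000020184, chromosome 10 from 117688875 to 117710758) encodes the ligase that marks p53 for degradation and is itself a classical p53 target. It had 3812 control and 9417 senescent reads, or 131 and 380 CPM (log2 ratio 1.53, interval 1.48 to 1.59). Mdm4 (ENSMUSG00000054387, chromosome 1 from 132959484 to 133030561) encodes the relative of MDM2 that masks the activation domain of p53. It had 10678 control reads and 2379 senescent reads, or 367 and 95.9 CPM (log2 ratio -1.94, interval -2.00 to -1.87). Mdm2 was thus 2.9-fold higher and Mdm4 3.83-fold lower in the senescent library. These are the 2 genes of the 32 that passed the study's threshold of 1.5, 1 in each direction (3.12% each). Across the 14383 genes with at least 10 reads, 2.71% were higher and 5.6% lower past this threshold, and among genes with at least 100 reads 1.25% and 3.5%. The Mdm2 ratio was 1.43 with total-count scaling, 1.495 with upper-quartile scaling and 1.37 with a trend on mean expression removed, all under 1.5, while Mdm4 passed under every scaling tried.

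A ratio of 2 genes inside a library does not depend on library scaling. Per kilobase of exon, Mdm2 stood at 1.04 times Mdm4 in the control and at 11.5 times in the senescent library. The ratio changed by 3.47 on the log2 scale (95% interval 3.39 to 3.55). Against Trp53, Mdm2 went from 0.566 to 1.36 per length, and Mdm4 from 0.544 to 0.118. The exonic length of Mdm4 used here, 14798 bases, is the union over all annotated transcripts and includes exons of transcripts that may not be present in these cells, so that its level per length is less certain than its change.

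Of the other regulators of p53, Ccng1 encodes cyclin G1, a p53 target that binds a phosphatase acting on MDM2. Ccng1 (chromosome 11 from 40748552 to 40755311) had the most reads of the 32 genes, 12010 in control and 18885 in senescent cells. These were 413 and 761 CPM (log2 ratio 0.88, interval 0.85 to 0.92). Per length it was second to Phlda3 in the control and above all other members in the senescent library, at 118 and 217 RPKM (CPM per kilobase of exon). Ppm1d, which encodes the phosphatase WIP1 that removes phosphates from p53 and from damage kinases, had 661 and 699 reads (log2 ratio 0.31, 0.15 to 0.47). Rchy1, which encodes the p53 ligase PIRH2, had 1655 and 1220 reads (log2 ratio -0.21, interval -0.32 to -0.10). Exons of the opposite-strand gene Thap6 cover 18.0% of the Rchy1 exons, and the use of strand in the counting is not given in the sources used here. Trp53inp1, a stress-induced partner of p53, had 4841 and 3664 reads (-0.17, interval -0.23 to -0.11). The feedback genes other than Mdm2 and Mdm4 thus lay between -0.21 and 0.88.

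**Figure D1:**
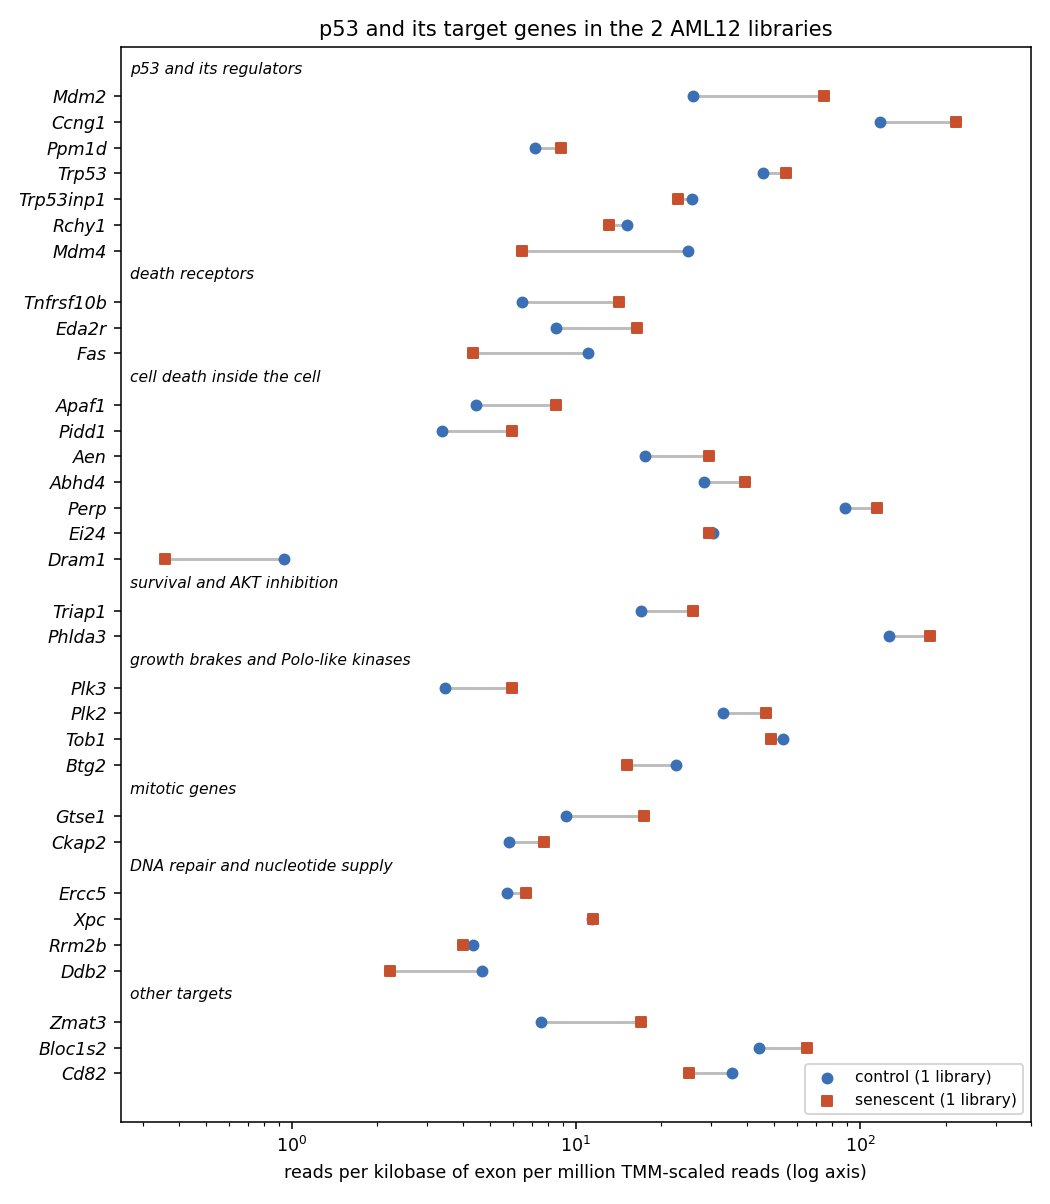
Level of each gene in the control (circles) and senescent (squares) library, in RPKM (TMM-scaled CPM per kilobase of exon) on a log axis, grouped by role, with 1 library per condition. Mdm2 and Mdm4 start near each other in the control, at 25.8 and 24.8, and end at 74.7 and 6.48 in the senescent library.

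The 3 receptor genes of the list, Tnfrsf10b, Eda2r and Fas, differed in direction. Tnfrsf10b, which encodes the mouse receptor for TRAIL (ENSMUSG00000022074, chromosome 14 from 69767472 to 69784411), had 1025 control and 1919 senescent reads. These were 35.2 and 77.4 CPM (log2 ratio 1.13, interval 1.02 to 1.25). Stretches of its longest transcript are shared with many unrelated genes at 95% identity or more, the longest with Gm15574, which had 0 reads in both libraries, over 12.7% of its length. Others had more reads than Tnfrsf10b, such as Usp6nl with 1913 and 2283 reads (5.13% of the length), Tcirg1 with 3099 and 2793 (4.75%) and Gnai2 with 11147 and 10242 (4.59%). How reads from these stretches were assigned was not tested, so the Tnfrsf10b count is uncertain to that extent. Eda2r, which encodes a receptor for ectodysplasin A2 and lies on the X chromosome, had 1455 and 2404 reads (log2 ratio 0.95, interval 0.86 to 1.05). Fas, which encodes the receptor for FAS ligand (ENSMUSG00000024778, chromosome 19 from 34290666 to 34327772), had 663 control and 222 senescent reads. Its level was 22.8 and 8.95 CPM (log2 ratio -1.35, interval -1.57 to -1.13). Tnfrsf10b was thus higher and Fas lower past 1. Per length, Tnfrsf10b stood at 0.585 times Fas in the control and at 3.27 times in the senescent library, a change of 2.48 (2.24 to 2.73) on the log2 scale.

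Genes listed under cell death inside the cell numbered 7. Of these, 5 had an interval above 0 and 1 an interval below it, against 34.0% and 34.6% of all compared genes, or 39.9% and 38.2% of those with at least 100 reads. Apaf1, which encodes the scaffold of the apoptosome, had 1171 and 1904 reads (log2 ratio 0.93, 0.83 to 1.04). Pidd1, whose protein activates caspase-2, had 447 and 668 reads (0.81, interval 0.63 to 0.99). Aen, an apoptosis-enhancing nuclease, had 2951 and 4233 reads (0.75, interval 0.68 to 0.82). These ratios are below the threshold of 1. Abhd4, an enzyme of N-acyl phospholipid metabolism, had 2697 and 3212 reads (log2 ratio 0.48, interval 0.41 to 0.56). Perp, which encodes a membrane protein of desmosomes, was among the most abundant of the 32 genes per length, with 88.7 and 115 RPKM. It had 5033 and 5562 reads (0.37, interval 0.32 to 0.43). Ei24, a protein of the endoplasmic reticulum, had 4314 and 3565 reads, and the interval of its ratio held 0 (-0.05, interval -0.11 to 0.02). Dram1, which encodes a lysosomal protein that promotes autophagy, had the fewest reads of the 32 genes. It fell from 83 to 27 reads, or 2.85 to 1.09 CPM (log2 ratio -1.36, interval -2.07 to -0.75), the widest interval of all.

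Triap1, an inhibitor of the apoptosome, and Phlda3, which competes with AKT for membrane lipids, act on survival. Triap1 had 535 control and 697 senescent reads (log2 ratio 0.61, interval 0.45 to 0.78). Phlda3 (chromosome 1 from 135766119 to 135769136) had 5714 and 6797 reads, or 126 and 176 RPKM (log2 ratio 0.48, interval 0.43 to 0.53). Both intervals lay above 0 and below 1.

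The growth brakes and the Polo-like kinases lay on different sides of 0. Plk2 and Plk3 encode stress-responsive kinases. Plk2 had 4296 and 5204 reads (log2 ratio 0.51, interval 0.45 to 0.56), and Plk3 had 256 and 375 (0.78, interval 0.55 to 1.02). Btg2 and Tob1 encode related antiproliferative proteins that recruit the CCR4-NOT deadenylase. Btg2 had 1799 and 1031 reads (log2 ratio -0.57, interval -0.69 to -0.46), and Tob1 had 3565 and 2752 reads (-0.14, interval -0.22 to -0.07). None of these 4 genes passed 1, and of all compared genes only 5.09% were higher and 9.98% lower past 1. The ratio of Plk2 to Btg2 per length went from 1.46 to 3.08.

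Gtse1 and Ckap2 encode proteins of the mitotic spindle that are also p53 targets, and GTSE1 is known to move p53 out of the nucleus. Gtse1 had 734 and 1177 reads (log2 ratio 0.91, 0.78 to 1.05), and Ckap2 had 545 and 615 (0.40, interval 0.24 to 0.57). Both ratios were above the median of 22 other mitotic genes known to be repressed through p53 and the DREAM complex, which was -0.13 with a range from -0.79 to 0.83. Of those 22 genes, 0 were past 1 in either direction, 5 had an interval above 0 and 11 an interval below 0. Of all compared genes, 34.0% had an interval above 0 and 34.6% below it, and 5.09% were higher and 9.98% lower past 1.

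The genes for DNA repair and nucleotide supply centred near 0, with a median of -0.05. Xpc, a sensor of damage for global nucleotide excision repair, had 1821 and 1561 reads (log2 ratio 0.01, interval -0.09 to 0.11). Ercc5, which encodes the excision repair nuclease XPG, had 978 and 974 reads (0.22, interval 0.09 to 0.35). Rrm2b, which encodes the p53-inducible subunit of ribonucleotide reductase, had 1152 and 907 reads (-0.12, interval -0.24 to 0.01). Ddb2, which encodes the other damage sensor of global repair (ENSMUSG00000002109, chromosome 2 from 91211572 to 91236982), had 371 control and 150 senescent reads. It was lower past 1, at 12.8 and 6.05 CPM (log2 ratio -1.07, interval -1.36 to -0.80). Exons of Acp2 on the opposite strand cover 23.8% of the Ddb2 exons, and Acp2 had 1050 and 761 reads, so that reads may have been shared out wrongly between both genes. Antisense or opposite-strand genes also cover 8.04% of the exons of Rrm2b, 6.66% of those of Ei24 and 3.32% of those of Plk3. The Ddb2 ratio was -0.83 with a trend on mean expression removed. Xpc changed its sign with the scaling, between -0.10 and 0.01, and the other 31 genes kept theirs.

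Zmat3, Cd82 and Bloc1s2 have other roles. Zmat3 encodes an RNA-binding regulator of splicing (ENSMUSG00000027663, chromosome 3 from 32334792 to 32366014). It had 2498 control and 4813 senescent reads, or 85.9 and 194 CPM, and was higher past 1 with a log2 ratio of 1.18 (1.11 to 1.25). Short stretches of the longest Zmat3 transcript are shared with other genes at 95% identity or more. Among these are Chek2 (1.82% of the length, 326 and 226 reads) and Imp4 (1.71%, 1727 and 2531 reads). Bloc1s2, a subunit of the BLOC-1 complex of lysosome-related organelles, had 2300 and 2877 reads (log2 ratio 0.55, interval 0.47 to 0.63). Its pseudogene Bloc1s2-ps, with 10 and 23 reads, shares 48.8% of the longest Bloc1s2 transcript. Cd82, a tetraspanin of the cell surface, had 3101 and 1865 reads (-0.50, interval -0.59 to -0.42).

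**Figure D2:**
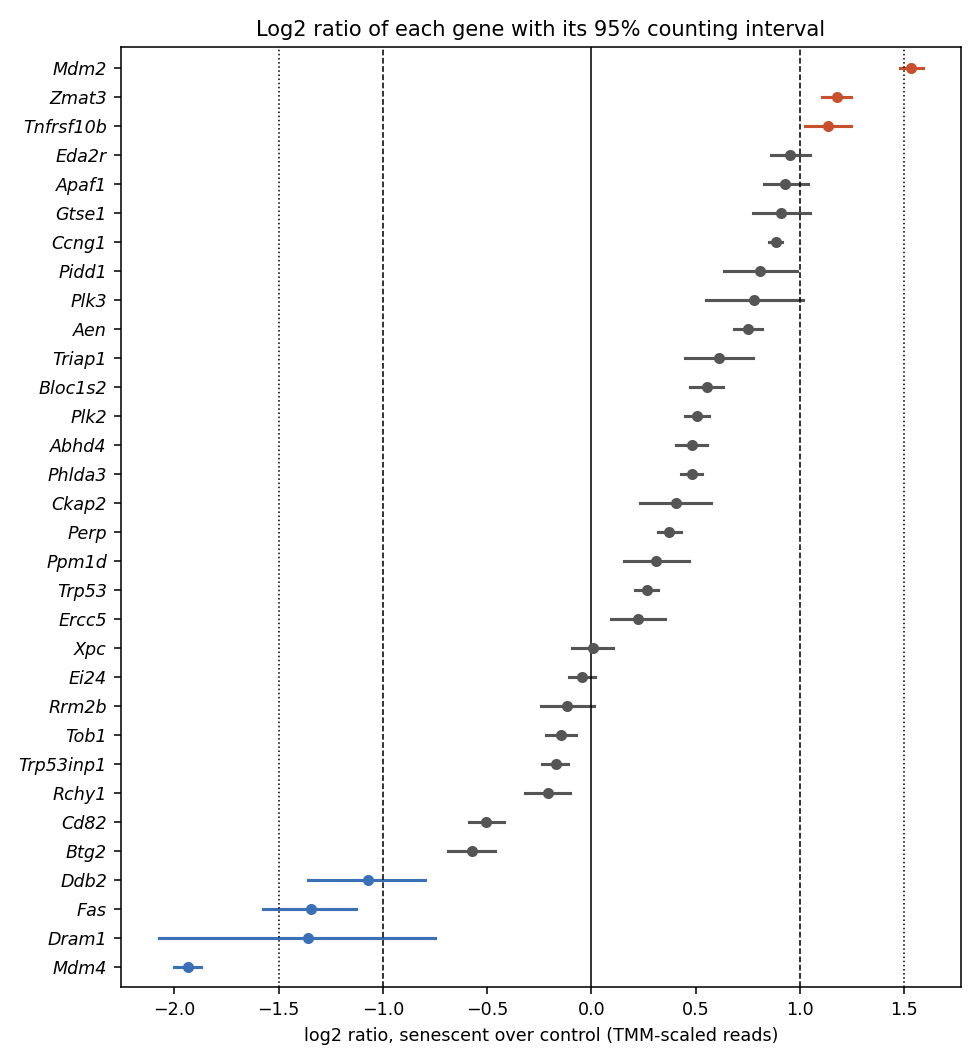
Log2 ratio of senescent over control TMM-scaled reads for each of the 32 genes, with bars for the 95% counting interval, dashed lines at 1 and dotted lines at 1.5 in both directions. Red marks the 3 genes higher past 1 and blue the 4 genes lower past 1, of which Mdm4 lies furthest from 0 at -1.94.

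Past 1 on the log2 scale, 3 of the 32 genes were higher (Mdm2, Zmat3 and Tnfrsf10b, 9.38%) and 4 were lower (Mdm4, Dram1, Fas and Ddb2, 12.5%). Of all 14383 compared genes, 5.09% were higher and 9.98% lower past 1. Among the 11291 genes with at least 100 reads, as all 32 had, the shares were 3.51% and 7.5%. Past 0.5, 13 of the 32 were higher (40.6%) and 6 lower (18.8%), against 14.8% and 20.4% of all compared genes and 15.5% and 20.1% of those with at least 100 reads. Thus the share of lower genes was near that of all genes at 0.5, and most of the higher genes lay under 1. A further 6 genes, Eda2r, Apaf1, Gtse1, Ccng1, Pidd1 and Plk3, had ratios from 0.75 to 1, and Aen lay at the lower edge of that range. The log2 ratio was above 0 for 21 of the 32 genes (65.6%), against 48.9% of all compared genes. The interval lay above 0 for 20 genes (62.5%, against 34.0% of all compared genes), below 0 for 9 (28.1%, against 34.6%) and held 0 for Xpc, Ei24 and Rrm2b. Among the genes with at least 100 reads, 50.4% had a ratio above 0, 39.9% an interval above 0 and 38.2% an interval below it. The median of the 32 was 0.39, with quartiles of -0.15 and 0.79, beside a median of -0.02 and quartiles of -0.48 and 0.35 for all compared genes. The median of the 32 was 0.28 with total-count scaling, which lowers each ratio by 0.11. The 32 genes were chosen with earlier results of these data known, so these shares and medians only describe the list.

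**Figure D3:**
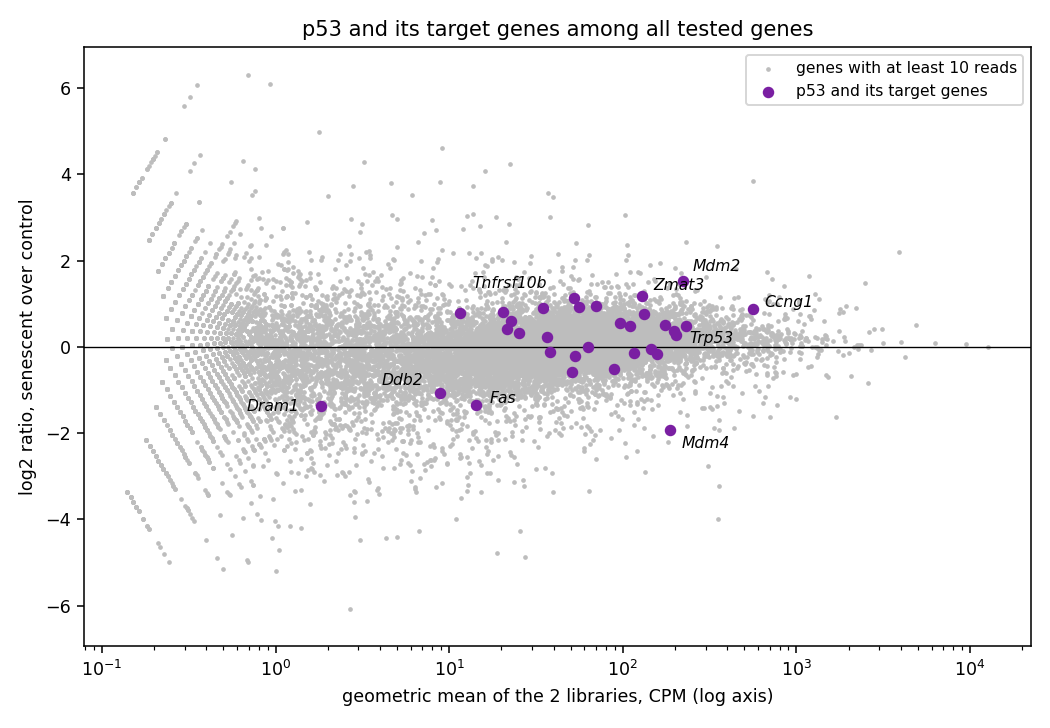
Log2 ratio of senescent over control against the geometric mean of the CPM of both libraries (0.05 added, log axis), with 14383 genes that had at least 10 reads in grey and the 32 genes in purple. Mdm2 lies above the other purple points at 1.53, Mdm4 below them at -1.94, and Trp53 at 0.26.

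A further 36 known p53 targets outside the 32 genes were listed, also with earlier results known, and 35 of them had at least 10 reads. Their median log2 ratio was 0.31. Of the 35, 2 were higher past 1 and 1 was lower, while 18 had an interval above 0 and 8 an interval below it. The shares of all compared genes are 5.09% higher and 9.98% lower past 1, so that the 2 higher genes are near the share of all genes, and 34.0% and 34.6% with an interval above and below 0. The higher genes were Epha2, an ephrin receptor, with 2547 and 6513 reads (log2 ratio 1.58, 1.52 to 1.65), and Steap3, a metalloreductase, with 1916 and 3519 (1.11, interval 1.03 to 1.19). The lower gene was Gls2, a mitochondrial glutaminase, with 251 and 61 reads (log2 ratio -1.80, interval -2.24 to -1.40). Cdkn1a, which encodes the cell cycle inhibitor p21, was singled out after its values were seen, as were Bax, Trp63 and Trp73. Cdkn1a had 6182 control and 9869 senescent reads, or 213 and 398 CPM (log2 ratio 0.90, interval 0.86 to 0.95). Bax, a pore-forming inducer of apoptosis, had 5826 and 4842 reads (-0.04, interval -0.09 to 0.02). Kinases, ligases and cofactors that act on the p53 protein, with its relatives Trp63 and Trp73, made a list of 30 genes. Of the 28 compared, 0 were past 1 in either direction, 17 had an interval above 0 and 8 an interval below it. Of all compared genes, 34.0% had an interval above 0 and 34.6% below it, and 5.09% were higher and 9.98% lower past 1. Their ratios ran from -0.50 to 0.71 with a median of 0.23. Trp63 and Trp73 had 0 reads in both libraries, which allows up to 0.103 CPM in control and 0.121 CPM in senescent cells.

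**Figure D4:**
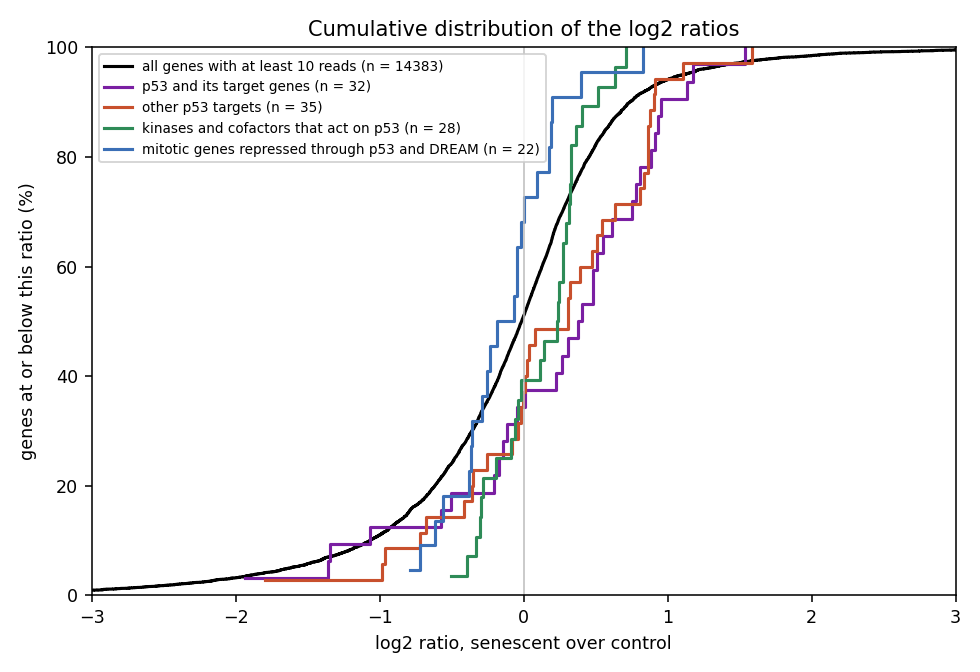
Cumulative share of genes (%) at or below each log2 ratio of senescent over control, drawn from -3 to 3, for all 14383 compared genes, the 32 genes of p53 and its targets, 35 other p53 targets, 28 genes that act on p53 and 22 mitotic genes. The medians are -0.02, 0.39, 0.31, 0.23 and -0.13.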

How the data were processed

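The deposited table holds raw read counts per Ensembl gene, which the authors made from poly(A)-selected, random-primed libraries of pooled RNA. The submitters' processing notes name CASAVA, STAR, DESeq2, edgeR and mm10 without a role. The counting tool, annotation and use of strand are not given in the sources used here. Columns were assigned by the initials of the sample titles Old and Young.

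Gene names, positions and exon lengths came from GENCODE M21 (GRCm38), and 34490 identifiers (97.8%) had a symbol. Counts were scaled by TMM in edgeR 4.0.16 (R 4.3.3). Log2 ratios used a prior count of 1, and 95% Clopper-Pearson intervals were set on the share of reads from the senescent library. These cover counting error only, because each condition has 1 library. PCR copies cannot be told from molecules here, so the intervals may be too narrow even for counting error. A gene was called past 1 or 1.5 where the interval did not hold 0 and both libraries together gave at least 10 reads. Ratios of 2 genes carry a normal interval of the log odds. Python 3.11.15, numpy 2.4.6, pandas 2.3.3, scipy 1.17.1, statsmodels 0.14.6, matplotlib 3.10.9, blastn 2.17.0 and DESeq2 1.42.0 were also used. A run on simulated counts checked the code and cannot show the spread between replicate libraries of these cells. With 1 library per condition no test of a gene against replicate spread could be run. No test of the 32 genes as a set was run, because they were chosen with earlier results known.

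The members and lists were chosen with earlier results of these data known. All 32 genes are named, with, of other pathway lists, up to 3 genes furthest from 0 in each direction past 1 with at least 100 reads, and, of marker lists, up to 3 with the most reads. Results were recomputed with upper-quartile, DESeq2 and total-count scaling, a lowess trend on mean expression, minimums of 1 and 100 reads, prior counts of 0.125 and 5, thresholds of 0.5 and 2, and intervals widened for a coefficient of variation of 0.1 or 0.4.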

Additional observations from a re-analysis of the deposited data

How the results depend on the processing

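The sign of 31 of the 32 ratios was kept under every scaling and prior count tried, and that of Xpc was not. The median of the 32 genes was 0.28 with total-count scaling in place of 0.39. The count higher past 1.5 was 0 in place of 1 with total-count scaling, upper-quartile scaling, the lowess trend, a threshold of 2 or a coefficient of variation of 0.4, and the count lower past 1.5 was 0 with a threshold of 2. Past 1, a coefficient of variation of 0.4 left 0 higher and 1 lower gene, Mdm4, since its intervals are wider by construction, and a threshold of 0.5 gave 13 higher genes. Dropping genes with fewer than 100 reads removed none of the 32. In a check added after seeing the data, 36 other p53 targets gave 1 higher gene past 1 with total-count scaling, 4 with the lowess trend and 0 at a coefficient of variation of 0.4, in place of 2, and 2 lower genes with total-count or upper-quartile scaling, in place of 1. The cause was not tested. Depth limits Dram1 most, with 83 and 27 reads. Leaving out a library was not possible with 1 per condition. No paired analysis was possible because each condition has 1 library.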
